A study of Homo sapiens with 6 samples.

Results

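OPRK1, ACKR3, MET, NOV, CLU, CAMK2N1, BCHE and DDC are genes whose transcripts are known, or listed in general accounts of androgen action, to be held down by androgen in prostate cells. They were taken by symbol from the deposited read-count table, where all 8 were found among 23354 genes. RNA was sequenced from LNCaP, an androgen-responsive cell line derived from a human prostate cancer. In 3 DHT+WBM libraries the cells received dihydrotestosterone (DHT, a potent natural androgen) at 1 nM with white button mushroom (WBM) extract at 3 µL/mL, and in 3 DHT libraries they received 1 nM DHT without the extract. Both treatments lasted 48 h, and the labels name no vehicle for the extract. Because every library received DHT, the data do not show whether DHT lowers these genes in these cells, and the group name rests on background knowledge.

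Androgens change transcription in prostate cells in both directions. At many genes with androgen response elements they raise it, as at KLK3, the gene of prostate-specific antigen. At other genes they lower it, and such transcripts can climb when androgen is withdrawn or its action is blocked. CLU was described in the regressing rat prostate as a testosterone-repressed message, and OPRK1 and MET are other well-known examples. The comparison of DHT+WBM with DHT asks how these transcripts stood when the extract was added to cells given the same dose of DHT.

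The libraries held 19127357 to 21490953 counts each, and 16511 to 16720 genes were detected per library. Nothing in the labels ties a replicate to a culture of its own, and p-values therefore reflect the spread among these 6 libraries, part or all of which may be technical. The luminal prostate markers KRT8, KRT18, EPCAM, KLK3, HOXB13 and FOLH1 were all detected, and their summed level was 2234 to 2299 CPM (counts divided by a library's scaled total) in DHT+WBM and 3289 to 3457 CPM in DHT, with KLK3 taking most of the difference. The 4 basal markers summed to at most 0.21 CPM in DHT+WBM and 0.38 CPM in DHT, with KRT5 at 0 counts. The 4 leukocyte markers summed to 80.6 to 89.6 CPM in DHT+WBM and 21.6 to 23.8 CPM in DHT, nearly all of it CD68, a lysosomal glycoprotein gene of macrophages that rose (log2 fold change 1.88 ± 0.06), while PTPRC, CD3E and CD14 had at most 2 counts per group. The 6 fibroblast and smooth muscle markers summed to 249 to 256 CPM in DHT+WBM and 248 to 250.5 CPM in DHT, nearly all of it VIM with COL1A2 at 0 counts, and the 4 endothelial markers to 2.21 to 2.34 CPM in DHT+WBM and 2.37 to 3.27 CPM in DHT, with CDH5 at 0 counts. In bulk RNA, fewer cells with a transcript and less of it per cell cannot be told apart.

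With the extract, 6 of the 7 members that passed the low-count filter rose and 1 fell. The risers were NOV, CLU, BCHE, MET, ACKR3 and CAMK2N1, by 1.35-fold to 2.07-fold, and DDC fell 2.75-fold. OPRK1 was too rare to be tested. Among all 13466 tested genes, 29.2% were called higher and 29.0% lower by the same test, edgeR's quasi-likelihood test with a Benjamini-Hochberg adjusted p under 0.05. That balance depended on the scaling, since scaling by the upper quartile gave 4426 higher against 3403 lower genes, and scaling by library totals gave 4675 against 3200. In all 7 the libraries of the groups did not overlap, which was so for 62.2% of tested genes. The median log2 fold change of DHT+WBM over DHT was 0.62 over the 7 members and 0.00 over all tested genes, and the median of its absolute size was 0.82 over the members and 0.21 over all tested genes. The members were chosen with earlier results of these data known, so these shares describe them and are no test of the group.

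**Figure D1:**
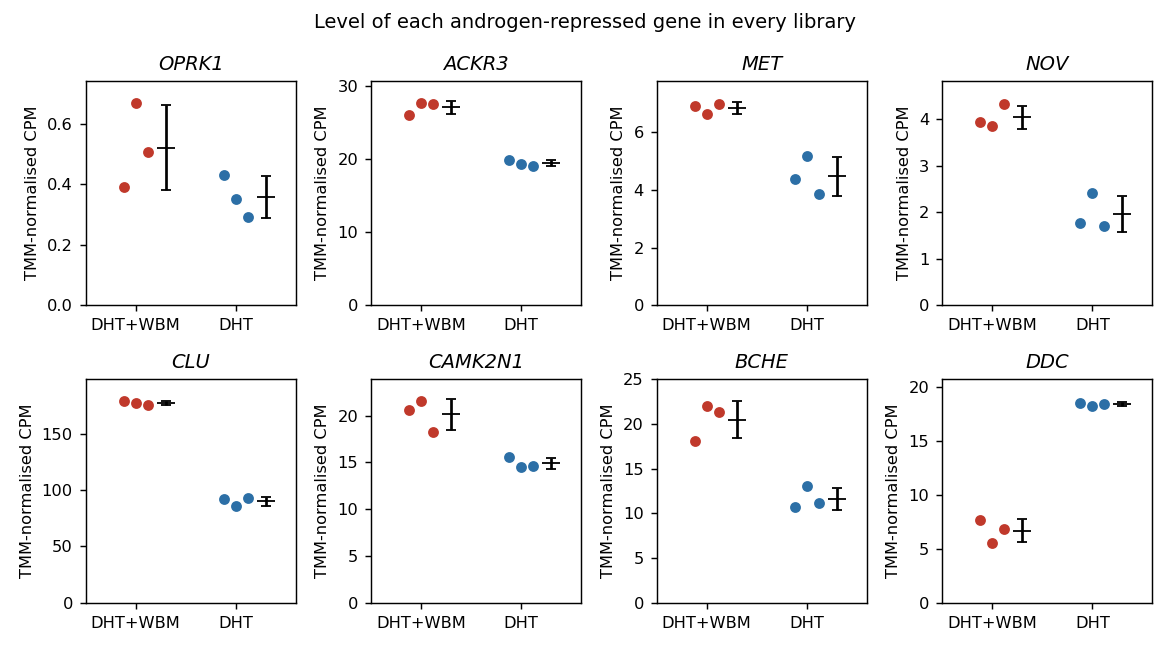
Each panel plots the TMM-normalised CPM (vertical axis, from 0) of a member in the 3 DHT+WBM libraries (red, left) and the 3 DHT libraries (blue, right), with the mean and SD in black. Only the OPRK1 panel shows overlapping groups, and DDC is the panel where DHT+WBM lies lower, at 5.55 to 7.65 CPM against 18.3 to 18.6 CPM in DHT.

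Sequence before the annotated start was matched by symbol in the RefSeq promoter table (build GRCh38.p14) for 3 members. They are MET and BCHE, which rose, and DDC, which fell and has 2 listed starts. The match used the symbols given here, so NOV was not sought under its newer name, CCN3. The 250 bases before each start are given 5′ to 3′ on the gene's own strand, with those of KLK3 for comparison. Capitals mark matches, on either strand, to AGAACA (a half-site of the androgen response element), GCGTG (the core bound by the aryl hydrocarbon receptor) or TGACNNNGC (the core bound by NRF2).
MET (chr7:116671946-116672195, plus strand): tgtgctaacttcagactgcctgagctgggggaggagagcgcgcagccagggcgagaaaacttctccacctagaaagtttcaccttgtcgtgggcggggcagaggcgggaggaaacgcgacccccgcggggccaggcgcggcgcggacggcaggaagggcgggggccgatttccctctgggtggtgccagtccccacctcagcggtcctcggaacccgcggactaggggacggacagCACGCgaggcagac
BCHE (chr3:165837424-165837673, minus strand): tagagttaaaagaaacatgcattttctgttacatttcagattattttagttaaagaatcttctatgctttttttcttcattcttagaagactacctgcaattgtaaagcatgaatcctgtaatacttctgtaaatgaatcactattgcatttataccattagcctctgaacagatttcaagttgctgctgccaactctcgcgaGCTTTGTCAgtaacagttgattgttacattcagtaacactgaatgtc
DDC, outer start (chr7:50565406-50565655, minus strand): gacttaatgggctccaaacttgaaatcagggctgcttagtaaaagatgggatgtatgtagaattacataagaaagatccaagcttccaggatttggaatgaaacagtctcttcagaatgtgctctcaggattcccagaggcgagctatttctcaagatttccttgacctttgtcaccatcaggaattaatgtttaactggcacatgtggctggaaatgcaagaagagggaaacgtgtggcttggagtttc
DDC, inner start (chr7:50561072-50561321, minus strand): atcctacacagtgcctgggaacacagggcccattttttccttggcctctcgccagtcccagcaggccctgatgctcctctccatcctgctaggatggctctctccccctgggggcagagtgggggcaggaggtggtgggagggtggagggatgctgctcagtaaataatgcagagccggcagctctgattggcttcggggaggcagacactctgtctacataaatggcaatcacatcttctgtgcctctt
KLK3 (chr19:50854665-50854914, plus strand): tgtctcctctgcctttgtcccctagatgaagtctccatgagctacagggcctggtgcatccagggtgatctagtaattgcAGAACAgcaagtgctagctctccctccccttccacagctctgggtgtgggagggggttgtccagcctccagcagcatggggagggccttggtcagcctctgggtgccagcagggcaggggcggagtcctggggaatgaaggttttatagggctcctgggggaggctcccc

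None of the 3 motifs matched in either DDC window. MET held a single GCGTG match, on the minus strand and beginning 14 bases before the start, and BCHE held a single TGACNNNGC match, on the strand opposite to the gene and 47 bases before the start. The half-site AGAACA was absent from the MET, BCHE and DDC windows and present in that of KLK3, 170 bases before the start, where a proximal androgen response element is known. Over all 35116 promoter windows of the same length in the table, 12.4% held AGAACA, 32.2% held GCGTG and 10.9% held TGACNNNGC. The windows differed in base composition, with 68.4% G or C in MET, 33.2% in BCHE, and 42.4% and 58% in the outer and inner DDC windows. A match is a string of letters and not a bound site, and no match says only that the letters are missing from these 250 bases.

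Among the receptors, OPRK1 encodes the kappa opioid receptor, a G protein-coupled receptor for dynorphin peptides (chromosome 8, 54138276 to 54164194, minus strand, hg19). It had 8, 13 and 11 counts in DHT+WBM replicates 1 to 3, against 9, 7 and 6 counts in DHT replicates 1 to 3. The groups overlapped, since DHT+WBM replicate 1 lay below DHT replicate 1. Pooled over libraries, 32 counts in DHT+WBM against 22 counts in DHT gave a ratio of 1.45, with an exact Poisson 95% interval of 0.81 to 2.61 that covers counting error only. OPRK1 was left out of the main fit by the low-count filter. With no filter its log2 fold change was 0.51 ± 0.44 (SE, edgeR adjusted p = 0.375), so a change was not detectable at this depth, and the interval of the pooled ratio includes the folds of the members that rose. Of the other opioid genes looked at, OPRM1, PENK and PNOC were at 0 counts in every library and PDYN, the dynorphin precursor gene, had 1 count in DHT+WBM and 3 counts in DHT. A count of 0 allows up to 3 counts in a library, which is 0.14 to 0.15 CPM here and covers counting error only. OPRL1, the nociceptin receptor gene, did not pass the test (log2 fold change -0.49 ± 0.32, edgeR adjusted p = 0.191).

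ACKR3 encodes an atypical chemokine receptor that binds CXCL12 and CXCL11 and removes them through beta-arrestin instead of signalling through G proteins (chromosome 2, 237469424 to 237490994, plus strand). It stood at 26.1, 27.6 and 27.6 CPM in DHT+WBM replicates 1 to 3, against 19.9, 19.4 and 19.1 CPM in DHT replicates 1 to 3. All DHT+WBM libraries lay above all DHT libraries (log2 fold change 0.48 ± 0.06, SE, edgeR adjusted p = 5.39e-08). Its ligands moved apart. CXCL11, an interferon-induced chemokine gene, fell to 6.81 ± 0.52 CPM in DHT+WBM, against 15.7 ± 1.29 CPM in DHT (SD, n = 3 each), a log2 fold change of -1.20 ± 0.09. CXCL12 rose to 4.53 ± 0.48 CPM in DHT+WBM, against 3.09 ± 0.53 CPM in DHT (log2 fold change 0.55 ± 0.15, edgeR adjusted p = 0.00156). CXCR4, the G protein-coupled receptor for CXCL12, did not pass the test, at 3.25 ± 0.40 CPM in DHT+WBM and 2.80 ± 0.39 CPM in DHT. Of the beta-arrestin genes, ARRB2 rose (log2 fold change 0.43 ± 0.06) and ARRB1 fell (-0.25 ± 0.04). Of 9 further genes of this axis 6 were tested, of which 3 rose, 2 fell and 1 missed the threshold.

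MET encodes the receptor tyrosine kinase for hepatocyte growth factor (chromosome 7, 116312459 to 116438440, plus strand). It stood at 6.92, 6.62 and 7.0 CPM in DHT+WBM replicates 1 to 3, against 4.39, 5.18 and 3.85 CPM in DHT replicates 1 to 3. The DHT+WBM libraries lay close together and above every DHT library, among which replicate 2 was highest, and the log2 fold change was 0.62 ± 0.12 (SE, edgeR adjusted p = 3.53e-05). HGF, the gene of its ligand, was at 0 counts in every library, as was HGFAC, the gene of a protease that activates the ligand. The membrane proteases matriptase (ST14) and hepsin (HPN), which can activate the ligand precursor, rose with log2 fold changes of 0.22 ± 0.04 and 0.40 ± 0.06. SPINT2, an inhibitor of these proteases, rose as well (0.17 ± 0.04), and SEMA4D, a semaphorin gene whose receptor plexin-B1 can couple to MET, fell (-0.38 ± 0.07). The related receptor gene MST1R was near the low-count filter and rose, with 41 counts in DHT+WBM against 18 counts in DHT (log2 fold change 1.16 ± 0.40, edgeR adjusted p = 0.0122). That call was lost without DHT+WBM replicate 1 (log2 fold change 0.97, edgeR adjusted p = 0.0800), without DHT replicate 3 (0.94, edgeR adjusted p = 0.0673) and with DESeq2 (1.18, DESeq2 adjusted p = 0.0770). MST1R had a mean of 0.29 CPM in DHT and was not tested with a filter of 1 CPM. It may have entered the comparison through DHT+WBM, where it was higher. In all, 6 of the 10 tested genes of this pathway beside MET rose, MST1R among them, and 1 fell. Of all tested genes, 29.2% were called higher and 29.0% lower.

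Among the secreted proteins, NOV, now named CCN3, encodes a matricellular protein of the CCN family that binds integrins (chromosome 8, 120428552 to 120436678, plus strand). It stood at 3.95, 3.85 and 4.33 CPM in DHT+WBM replicates 1 to 3, against 1.77, 2.42 and 1.71 CPM in DHT replicates 1 to 3. No libraries overlapped between the groups. Its log2 fold change, 1.05 ± 0.16 (SE, edgeR adjusted p = 1.03e-06), had the highest point estimate among the members and rested on 250 counts in DHT+WBM against 120 counts in DHT. The family member CYR61 (CCN1), a growth-factor- and YAP-responsive gene, went the other way and fell to 5.12 ± 0.30 CPM in DHT+WBM, against 8.26 ± 0.37 CPM in DHT (log2 fold change -0.69 ± 0.11, edgeR adjusted p = 9.22e-07). CTGF (CCN2) had 9 counts in DHT+WBM and 1 count in DHT and was not tested. Of the integrin subunit genes, ITGA5 rose (log2 fold change 0.44 ± 0.05) and ITGAV, ITGB1 and ITGB5 missed the threshold, at log2 fold changes of 0.09, -0.07 and -0.07.

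CLU encodes clusterin, an extracellular chaperone that keeps unfolded proteins soluble (chromosome 8, 27454434 to 27472328, minus strand). It stood at 179, 177 and 175 CPM in DHT+WBM replicates 1 to 3, against 92.0, 85.7 and 92.8 CPM in DHT replicates 1 to 3. This was the most abundant member and the one measured most precisely, with a 1.96-fold rise and no overlap between the groups (log2 fold change 0.97 ± 0.04, SE, edgeR adjusted p = 9.58e-22). Of all tested genes, 3.39% had a higher log2 fold change. Of the receptor genes that can take up clusterin or related lipoproteins, LRP8 and LRP1 rose by 0.19 ± 0.06 and 0.22 ± 0.07 on the log2 scale. The LRP8 call was lost without DHT+WBM replicate 3 (log2 fold change 0.16, edgeR adjusted p = 0.0715) and without DHT replicate 3 (0.14, edgeR adjusted p = 0.0918). The LRP1 call was lost without DHT+WBM replicate 3 (0.17, edgeR adjusted p = 0.0529), DHT replicate 2 (0.17, edgeR adjusted p = 0.0592) or DHT replicate 3 (0.12, edgeR adjusted p = 0.115), and with DESeq2 (0.21, DESeq2 adjusted p = 0.217), whereas without DHT replicate 1 the log2 fold change was 0.36. VLDLR missed the threshold with TMM factors and all 6 libraries (0.12 ± 0.07) and passed it with library totals alone (0.17, edgeR adjusted p = 0.0312) and without DHT replicate 1 (0.20, edgeR adjusted p = 0.0112). Its log2 fold change was 0.04 without DHT replicate 3. SORL1, a sortilin-related receptor gene, fell (-0.17 ± 0.07, edgeR adjusted p = 0.0288), a call kept under 7 of 15 alternatives. HSF1, the heat shock factor gene, did not pass the test, with 0.07 ± 0.04. Of 5 tested genes of this group beside CLU, 2 rose, 1 fell and 2 missed the threshold.

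Among the intracellular regulators and enzymes, CAMK2N1 encodes a small inhibitor of calcium/calmodulin-dependent protein kinase II (chromosome 1, 20808884 to 20812728, minus strand). It stood at 20.6, 21.5 and 18.3 CPM in DHT+WBM replicates 1 to 3, against 15.6, 14.5 and 14.6 CPM in DHT replicates 1 to 3. DHT+WBM replicate 3 was the lowest of its group and still above every DHT library, and the log2 fold change was 0.43 ± 0.08 (SE, edgeR adjusted p = 7.19e-06). Of the kinase subunit genes that it inhibits, CAMK2D rose to 38.2 ± 1.41 CPM in DHT+WBM, against 27.0 ± 0.92 CPM in DHT (SD, n = 3 each; log2 fold change 0.50 ± 0.06, edgeR adjusted p = 1.98e-09). CAMK2G and CAMK2B missed the threshold, at log2 fold changes of 0.03 ± 0.05 and -0.11 ± 0.08, and CAMK2A had 1 count in DHT+WBM and 0 counts in DHT. The sister inhibitor gene CAMK2N2 did not pass the test either, at 8.65 ± 0.89 CPM in DHT+WBM and 8.50 ± 0.70 CPM in DHT.

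BCHE encodes butyrylcholinesterase, a secreted enzyme that hydrolyses choline esters (chromosome 3, 165490692 to 165555253, minus strand). It stood at 18.1, 22.0 and 21.3 CPM in DHT+WBM replicates 1 to 3, against 10.7, 13.0 and 11.1 CPM in DHT replicates 1 to 3. The groups were apart although both spread, and the log2 fold change was 0.82 ± 0.08 (SE, edgeR adjusted p = 1.21e-10). The genes of acetylcholine handling around it went the other way or missed the threshold. PRIMA1, which anchors cholinesterase at membranes, fell to 0.53 ± 0.10 CPM in DHT+WBM, against 1.38 ± 0.25 CPM in DHT (log2 fold change -1.36 ± 0.29, edgeR adjusted p = 9.67e-05). The nicotinic receptor subunit gene CHRNA2 fell to 16.1 ± 0.77 CPM in DHT+WBM, against 45.9 ± 2.89 CPM in DHT (log2 fold change -1.51 ± 0.06, edgeR adjusted p = 6.83e-22). CHRNA5, another such gene, fell by 0.27 on the log2 scale (edgeR adjusted p = 0.00359). ACHE, the gene of acetylcholinesterase, had 23 counts in DHT+WBM and 21 counts in DHT and was not tested, and CHAT, the acetylcholine synthesis gene, was at 0 counts. Of 5 tested genes of this group beside BCHE, 0 rose and 3 fell.

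DDC encodes aromatic L-amino acid decarboxylase, which makes dopamine from L-DOPA and serotonin from its precursor (chromosome 7, 50526134 to 50633154, minus strand). It was the member that went against the rest. It stood at 7.65, 5.55 and 6.86 CPM in DHT+WBM replicates 1 to 3, against 18.6, 18.3 and 18.5 CPM in DHT replicates 1 to 3. The DHT libraries were nearly level, the DHT+WBM libraries spread more with replicate 2 lowest, and the log2 fold change was -1.46 ± 0.09 (SE, edgeR adjusted p = 1.17e-16). Of all tested genes, 0.61% had a lower log2 fold change. DDC-AS1, which lies inside the span of DDC on the opposite strand, was at 0 counts in every library.

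The tested monoamine genes around DDC were mixed, with 3 higher, 2 lower and 1 that missed the threshold. TH, TPH2 and PNMT were at 0 counts in every library, DBH had 0 counts in DHT+WBM and 1 count in DHT, and TPH1 had 0 counts in DHT+WBM and 2 counts in DHT. MAOA, which oxidises monoamines and was abundant here, rose to 748 ± 15.4 CPM in DHT+WBM, against 587 ± 14.6 CPM in DHT (SD, n = 3 each; log2 fold change 0.35 ± 0.04, edgeR adjusted p = 2.98e-10). GCH1 and PTS, which make the tetrahydrobiopterin cofactor, rose with log2 fold changes of 0.24 ± 0.05 and 0.33 ± 0.05, whereas SPR, which catalyses the last step of that synthesis, fell (-0.22 ± 0.06). DDC is also used as a marker of neuroendocrine prostate cells. The 6 neuroendocrine markers looked at summed to 17.3 to 21.2 CPM in DHT+WBM and 8.10 to 8.69 CPM in DHT, most of it ENO2, which rose with a log2 fold change of 1.31 ± 0.10. CHGA had 0 counts in DHT+WBM and 2 counts in DHT, and SYP missed the threshold, at a log2 fold change of 0.22. NCAM1 was not tested, with 32 counts in DHT+WBM against 13 counts in DHT and no overlap between the groups. CHGB had 7 counts in DHT+WBM and 5 counts in DHT, and INSM1 had 8 and 9 counts. The part of these markers in the DDC result was not tested.

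**Figure D2:**
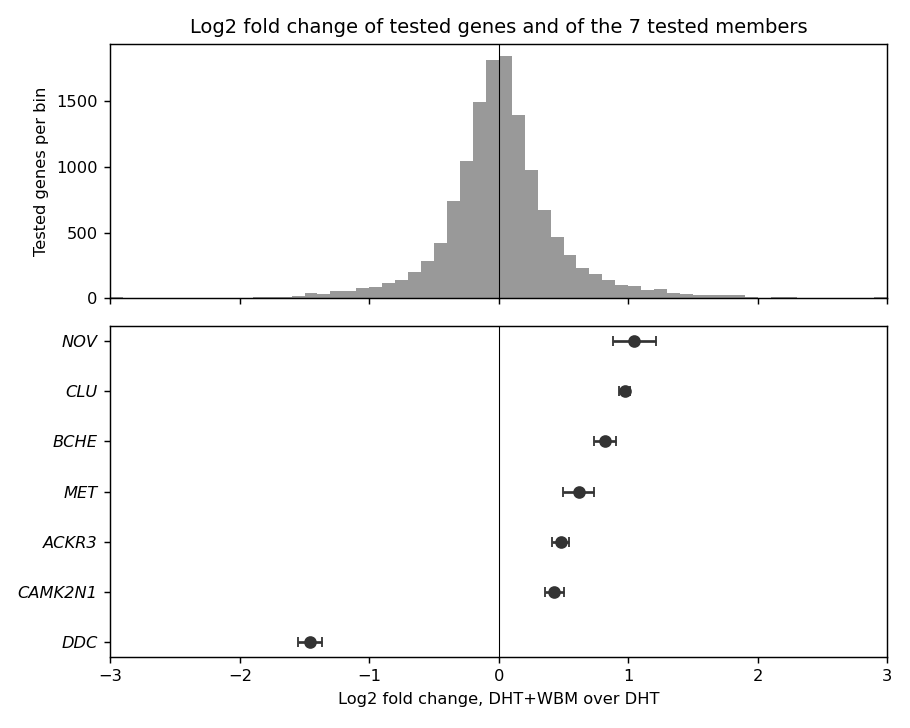
The upper panel counts tested genes in bins of log2 fold change (DHT+WBM over DHT, values beyond ±3 placed in the end bins), and the lower panel plots the 7 tested members with their SE on the same axis. The 6 members that rose lie between 0.43 and 1.05, and DDC lies at -1.46.

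Ordered by size, most of the rises lay close to the next, and whether they form steps was not tested. From NOV at 1.05 through CLU, BCHE, MET and ACKR3 to CAMK2N1 at 0.43, neighbours differed by less than the sum of their standard errors at each step except between CLU and BCHE, where the difference was 0.16 and the sum 0.13. The share of tested genes with a higher log2 fold change was 2.93% for NOV, 4.83% for BCHE, 7.88% for MET, 11.2% for ACKR3 and 12.9% for CAMK2N1. DDC stood 1.89 below CAMK2N1 on the log2 scale.

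Levels were also set per length, as counts per kilobase of the deposited gene length, scaled like CPM (RPKM). In DHT+WBM the order was CLU at 46.2 RPKM, ACKR3 at 11.8, CAMK2N1 at 8.57, BCHE at 8.38, DDC at 2.71, NOV at 1.56, MET at 0.93 and OPRK1 at 0.10 RPKM. In DHT it was CLU at 23.5 RPKM, ACKR3 at 8.46, DDC at 7.47, CAMK2N1 at 6.35, BCHE at 4.76, NOV at 0.76, MET at 0.61 and OPRK1 at 0.07 RPKM. DDC ranked below CAMK2N1 and BCHE in DHT+WBM and above both in DHT. CAMK2N1 and BCHE overlapped between their libraries in DHT+WBM, and NOV and MET overlapped in DHT, so those neighbours were not separated by their spread. Against all tested genes the DHT levels of the members ran from near the bottom to upper-middle. The share of genes below was 0.46% for OPRK1, 12.1% for MET, 51.1% for ACKR3 and 75.9% for CLU.

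**Figure D3:**
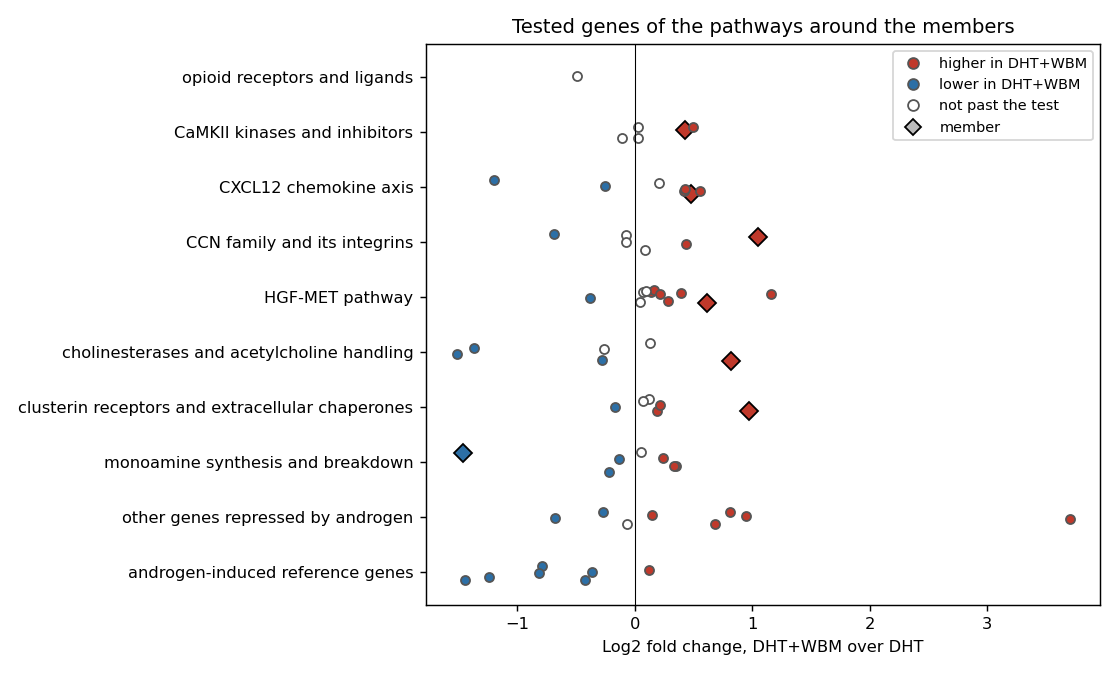
Rows are groups of genes around a member, with further rows for other genes repressed by androgen and for androgen-induced genes. Each symbol is a tested gene placed by its log2 fold change (horizontal axis, DHT+WBM over DHT). Symbols are red where higher, blue where lower and open where the gene did not pass the test, with members as diamonds. The opioid row holds OPRL1 alone, since OPRK1 was not tested. Vertical scatter within a row has no meaning, and most rows hold genes on both sides of 0.

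Other genes known to be repressed by androgen were split. Of 9 reported here beside the members, 8 were tested, and 5 rose, 2 fell and 1 missed the threshold. HSD17B6, a steroid dehydrogenase gene of androgen metabolism, rose to 10.9 ± 0.59 CPM in DHT+WBM, against 5.66 ± 0.18 CPM in DHT (log2 fold change 0.95 ± 0.10, edgeR adjusted p = 1.72e-10). UGT2B17 and UGT2B15 glucuronidate androgens and share sequence with other UGT2B genes, so that their counts are uncertain. They rose by 0.68 ± 0.08 and 0.81 ± 0.05. AKR1C3, a 17-ketosteroid reductase gene with near-identical relatives whose reads may be shared, rose by 3.70 ± 0.09, the point at the far right of its row in the plot of partner genes. ERBB2, a receptor tyrosine kinase gene, rose by 0.15 ± 0.04. BCL2, with 72 counts in DHT+WBM and 115 counts in DHT, fell by 0.68 ± 0.23 on the log2 scale (edgeR adjusted p = 0.0107). MYC fell by 0.27 on that scale. FOLH1, the gene of prostate-specific membrane antigen, missed the threshold, at a log2 fold change of -0.06 ± 0.04. Of 7 androgen-induced genes reported here for comparison, 6 fell and 1 rose, and the median of their log2 fold changes was -0.79. The falls ran from -0.36 ± 0.04 for PMEPA1 to -1.45 ± 0.04 for KLK3. FKBP5 was the gene that rose (0.12 ± 0.04, edgeR adjusted p = 0.0153), with overlapping groups. Over all tested genes, 29.2% were called higher and 29.0% lower, and these few listed genes are no test against those shares.

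Genes next to the members in the genome were compared with them, using the nearest tested gene on each side in the deposited coordinates. Of 16 such genes, 7 were called higher, 3 were called lower and 6 were not called. Of the 14 next to a tested member, 5 were called in its direction. Over all tested genes, 29.2% were called higher and 29.0% lower, and these few neighbours are no test against those shares. CAV2 and ZBBX, both among the 5, had means of 0.36 and 0.47 CPM in DHT, near the low-count filter. Neither was tested with a filter of 1 CPM, so both may have entered the comparison through DHT+WBM, where they were higher. Around CLU, which rose 1.96-fold, EPHX2 and SCARA3 lay 52 and 19.2 kb away and missed the threshold, at log2 fold changes of 0.10 ± 0.05 and 0.09 ± 0.09, although EPHX2 passed it with upper-quartile factors (0.14, edgeR adjusted p = 0.0241) and with library totals alone (0.15, edgeR adjusted p = 0.0129). MUL1, 13.2 kb from CAMK2N1, did not pass it either (0.00 ± 0.06). CAPZA2, 12.7 kb from MET, rose by 0.18 ± 0.04, and CAV2, on the other side of MET at 164 kb, rose by 1.47 ± 0.35 at low levels of 1.00 ± 0.16 CPM in DHT+WBM and 0.36 ± 0.18 CPM in DHT.

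Around NOV, MAL2 did not pass the test and TAF2 fell by 0.13 on the log2 scale, a call lost without DHT+WBM replicate 1 (edgeR adjusted p = 0.0927) and without DHT replicate 1 (0.0623), and also with upper-quartile factors (0.0672) or library totals alone (0.119). DDC had the nearest flanking gene of all members, FIGNL1, a recombination repair gene 8.05 kb away on the same strand. FIGNL1 fell to 51.2 ± 2.35 CPM in DHT+WBM, against 89.0 ± 7.02 CPM in DHT (SD, n = 3 each; log2 fold change -0.80 ± 0.05, edgeR adjusted p = 3.42e-16). On the other side of DDC at 24.6 kb, GRB10, an adaptor of growth factor receptors, rose by 0.18 ± 0.04. BCHE lay in a sparse stretch, with SLITRK3 lower by 0.28 at 576 kb, and ZBBX higher at 1403 kb (log2 fold change 1.00), a call lost without DHT+WBM replicate 3 (0.74, edgeR adjusted p = 0.102) and with DESeq2 (1.00, DESeq2 adjusted p = 0.0617). Next to ACKR3, COPS8 rose by 0.14 ± 0.04 at 503 kb. Next to OPRK1, RB1CC1 rose by 0.20 ± 0.04 at 511 kb, and ATP6V1H by 0.10 ± 0.04 at 464 kb, a call lost without any single DHT+WBM library or without DHT replicate 1 (edgeR adjusted p from 0.0976 to 0.215), with no low-count filter (edgeR adjusted p = 0.0974) and with DESeq2 (DESeq2 adjusted p = 0.0786).

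**Figure D4:**
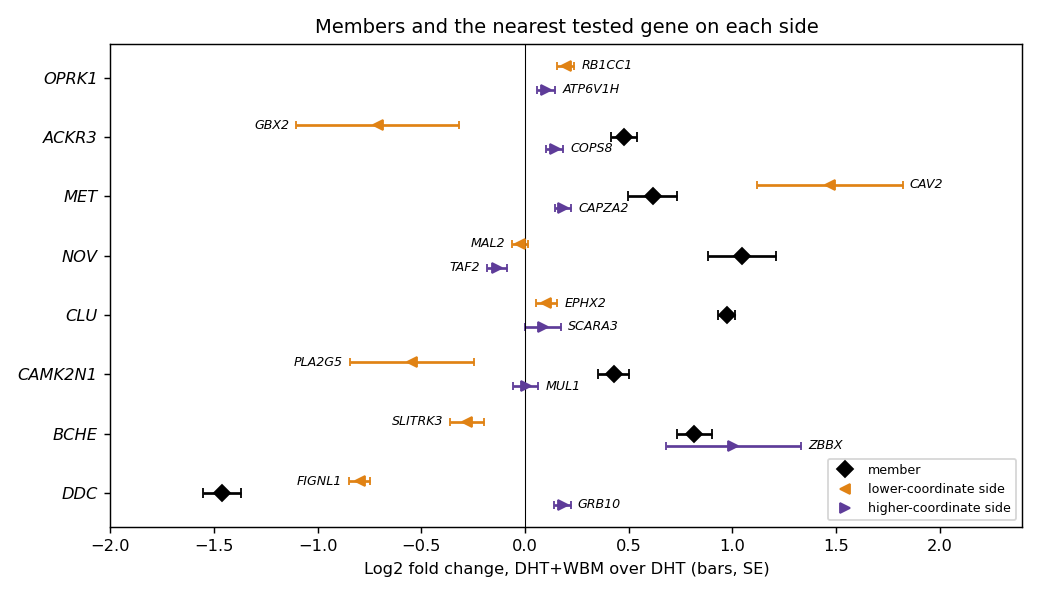
For each member (rows), the horizontal axis gives the log2 fold change of DHT+WBM over DHT with its SE for the member (black diamond, none for OPRK1, which was not tested) and for the nearest tested gene on the lower- and higher-coordinate side (triangles). The genes flanking NOV, CLU and CAMK2N1 lie at or below 0.10, under those members, while FIGNL1 lies at -0.80 beside DDC at -1.46.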

How the data were processed

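The table deposited by the authors holds unnormalized whole-number counts of reads for each gene in 6 libraries, beside gene positions and lengths. The submitters' processing notes list hg19, edgeR 3.28.1, HTSeq 0.6.0, STAR 2.6.0 and bcl2fastq 2.18.0.12 without saying what each did. Neither annotation nor strand setting is given in the sources used here, so reads of a gene and of an overlapping antisense gene cannot be separated.

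Counts were fitted over all genes in R 4.3.3 with edgeR 4.0.16 (filterByExpr, minimum count 10 in 3 libraries and total 15, TMM factors 0.979 to 1.02, quasi-likelihood F-test, two-sided, Benjamini-Hochberg). SEs were taken from the F statistic. The minimum two-sided p of an exact permutation of 3 against 3 is 0.1, so none is given. Groups came from the sample titles. The alternatives included DESeq2 1.42.0 and limma-voom (limma 3.58.1). Features spanning over 5000 kb were left out of the search for neighbours.

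The members and gene lists were chosen with earlier results of these data known. Beside the members, the rule named up to 3 called genes per list, ligands, receptors and paralogs, and flanking genes; other genes were named after their values were seen, and some named by the rule are left out. Some listed genes are not reported here, whatever their values, and are left out of the list counts, medians, marker sums and plots, so these describe part of each list. Genes alike in pattern were not sought, because the 6 libraries form 2 clusters, the treatment groups, and a correlation would restate that difference.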

Additional observations from a re-analysis of the deposited data

How the results depend on the processing

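Under each of the 15 alternatives, 6 members were higher and 1 was lower. The log2 fold changes ranged from 0.46 to 0.52 for ACKR3, 0.76 to 0.91 for BCHE, 0.37 to 0.49 for CAMK2N1, 0.94 to 1.02 for CLU, 0.52 to 0.73 for MET, 0.96 to 1.22 for NOV and -1.57 to -1.35 for DDC, with 0.000709 as the highest adjusted p, for MET. OPRK1 was tested in 5 of them, with log2 fold changes of 0.40 to 0.68 and adjusted p of 0.189 to 0.471. The replicate numbers are not shown to pair the libraries, since the deviations of same-numbered libraries correlated at 0.05, 0.04 and 0.02. With the number as a replicate block, 4079 genes were higher and 4030 lower, against 3928 and 3909 without it, and no call of a member changed. Among flanking genes and partners that did not pass the test, MUL1 changed sign with no filter (-0.0085) and with a filter of 1 CPM (-0.00035), and ranged from -0.050 to 0.045 when single libraries were left out. MAL2 did so with upper-quartile factors (0.0097) and library totals (0.024), and ranged from -0.047 to 0.020 with libraries left out, and CAMK2N2 from -0.068 to 0.093. The cause was not tested. Depth limits OPRK1, whose libraries held 6 to 13 counts.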
